A study of Mus musculus with 16 samples.

Results

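The cells described here are the 838 cells that the authors named Pericyte_12, taken by that name from the 24352 cells to which they gave cluster names. They made up 3.44% of the named cells and 0.764% of all 109723 cells profiled. They came from brown fat of mice, the heat-producing fat, as its stromal vascular fraction: what remains of the digested tissue once floating fat cells, red blood cells and dead cells have been taken away. C57BL6J mice were kept under 4 housing conditions with 4 libraries each: thermoneutral at 30 °C, room temperature at 22 °C, 5 °C for 2 days and 5 °C for 7 days. All mice carried the same strain label, with no transgene or drug in the labels. A stay of 1 week is given for thermoneutral housing in the series design and for room temperature in the protocol. The number, age and sex of the mice behind each library were not given in the sources used here, so p-values measure the spread between libraries, part of which may be technical. The comparisons ask how the share of pericytes in the niche differed between housings.

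Pericytes are mural cells. They lie against the endothelial tube of capillaries and small venules inside a shared basement membrane, and they help to regulate capillary diameter, vessel stability and permeability. Vascular smooth muscle cells are the mural cells of larger vessels and form a contractile coat. In brown fat, a dense capillary bed supplies fuel and oxygen to the thermogenic adipocytes and carries heat away. Endothelial cells recruit pericytes through the growth factor PDGF-B, which acts on the receptor PDGFRB on mural cells. Rgs5, a regulator of G protein signalling, Kcnj8 and Abcc9, the subunits of an ATP-sensitive potassium channel, Cspg4, the NG2 proteoglycan, and Notch3, a receptor of mural cells, are commonly used as markers. Gene values were not analysed here, so the name Pericyte_12 was not checked against any of the 5 markers and stands as the authors gave it. Cell names that begin with VSM_ (10 clusters, 12372 cells) and EC_ (6 clusters, 2983 cells) served as references from the same library. They are read as vascular smooth muscle and endothelial cells.

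Pericytes were found in all 15 libraries with named cells, at 7 to 179 cells per library. Replicate 1 of 2-day cold had 10001 cells but none with a name, so the 2-day group has 3 libraries below. By housing, 164 pericytes came from thermoneutral housing, 144 from room temperature, 178 from 2-day cold and 352 from 7-day cold. Replicates 1 and 2 of 7-day cold alone gave 38.7% of all pericytes while holding 7.61% of the named cells. Pooled over housings, replicates 1 and 2 had a higher mean share than replicates 3 and 4. Pericytes were 7.08% ± 7.29 of named cells in replicates 1 and 2 (SD, n = 7, range 1.31 to 18.5%). In replicates 3 and 4 they were 1.67% ± 0.787 (SD, n = 8, range 0.352 to 3.11%). The 7-day libraries, at 18.5% and 16.8%, were the highest of replicates 1 and 2. At room temperature the pairs overlapped, with 1.31% and 2.79% against 1.52% and 1.96%. The labels do not say what the replicate numbers stand for, so values within each pair of replicates are given beside the pooled ones. No cell barcode was shared between pericytes of different libraries. The barcodes of 26 pericytes, 3.10%, also occurred in another library among all cells, and for all cells that share was 2.82%.

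The pericytes stayed together in the deposited clusterings. All 838 fell into a single cluster at each of the 8 resolutions given in both tables. Among named cells they were alone in their cluster from resolution 0.6 upward. At the coarsest resolution, 0.1, they shared it with 150 cells of VSM_21, a smooth muscle cluster of 337 cells, and at 0.4 with 200 cells of VSM_21. Pericyte_12 is cluster 12 of the named cells at resolution 1.2, so being alone in it follows from the name. Among all cells the pericytes were not alone at any resolution, at 74.4 to 77.4% of their cluster. The clusters rest on the genes of the same cells, so this is a description.

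Among all cells at the finest resolution, 1.8, the cluster that held the pericytes had 1082 cells, of which 77.4% were Pericyte_12. It also held 137 VSM_21 cells, which is 40.7% of VSM_21, 4 cells with other names and 103 cells without a name. Of the cells without a name, 36 came from replicate 1 of 2-day cold. They were 0.360% of that library, which is the only measure of this cell group there. Those 36 cells had a median of 2460 UMIs (unique molecular identifiers, one per captured transcript) and a median mitochondrial share of 3.67%. The library as a whole had 9819 UMIs and 29.1%. Over 16 libraries, this wider cluster made up 0.688% ± 0.611 of all cells in thermoneutral housing, 0.783% ± 0.553 at room temperature, 0.676% ± 0.535 after 2 days of cold and 2.60% ± 2.72 after 7 days (SD, n = 4 each).

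The share of pericytes among named cells was higher after 7 days of cold than in thermoneutral housing. In thermoneutral replicates 1 to 4 it was 3.42%, 2.25%, 1.08% and 0.352%. At room temperature it was 1.31%, 2.79%, 1.52% and 1.96%. In replicates 2 to 4 of 2-day cold it was 4.56%, 1.76% and 1.70%. After 7 days of cold it was 18.5%, 16.8%, 3.11% and 1.91%. Replicates 1 and 2 of 7-day cold lay far above every other library, whereas its replicates 3 and 4 lay within the thermoneutral range. The groups therefore overlapped. The 95% Wilson intervals of 7-day replicates 3 and 4 were wide, at 2.00 to 4.81% and 1.01 to 3.60%. For 7-day replicates 1 and 2 the intervals were 15.9 to 21.4% and 14.6 to 19.1%. The lowest thermoneutral library rested on 9 pericytes, with an interval of 0.185 to 0.668%. In these data a larger number of pericytes and a smaller number of other named cells cannot be told apart within a share. Named cells per library numbered 470 to 1068 after 7 days of cold and 357 to 3739 elsewhere.

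**Figure D1:**
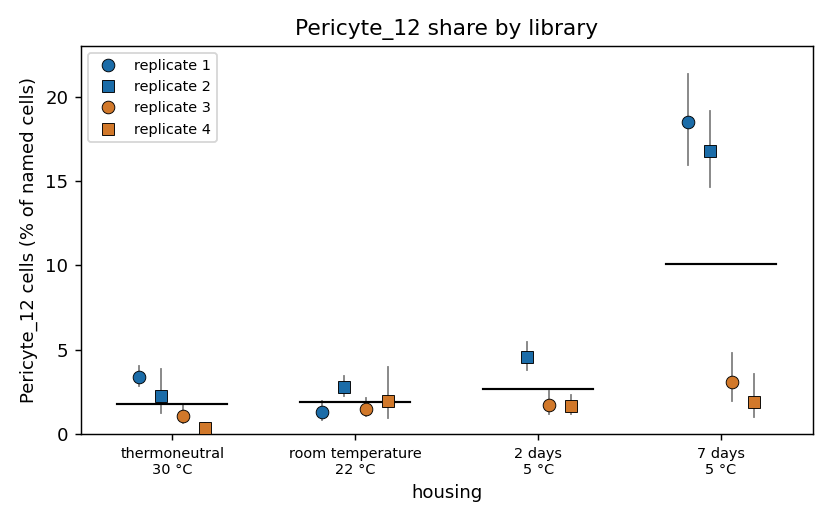
Pericyte_12 cells as a percentage of the named cells of each library, on a linear scale, by housing. Points are libraries, bars are 95% Wilson intervals and horizontal lines are arithmetic means. Replicates 1 and 2 of 7-day cold stand at 18.5% and 16.8%, and no other library exceeds 4.56%.

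On the log2 odds scale the difference between 7-day cold and thermoneutral housing was 2.44 ± 0.83 (SE), which is 5.43-fold in odds, with an adjusted p of 0.0290 in limma over 27 named clusters. In that comparison 10 of the 27 clusters passed, a background of 37%, and 9 of them were higher, 33.3%. A call for pericytes was thus one of many there. Replicates 1 and 2 alone gave 2.88, and replicates 3 and 4 alone 2.00. With the replicate pair as a covariate the adjusted p was 0.00786, with 63% of clusters passing and 44.4% passing as higher. The adjusted p of the fit without it rose above 0.05 when thermoneutral replicate 3 (0.0800), thermoneutral replicate 4 (0.115), 7-day replicate 1 (0.0955) or 7-day replicate 2 (0.0997) was left out. It also rose above 0.05 when smooth muscle cells were taken out of the denominator, which gave 1.68 and an adjusted p of 0.0943, and with all cells of a library as the denominator, which gave 1.53 ± 0.99 and an adjusted p of 0.213.

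Against room temperature, 7-day cold differed by 1.97 ± 0.83 in log2 odds with an adjusted p of 0.0956 in limma, where 7.41% of the clusters passed. Within replicates 1 and 2 the difference was 3.44, and within replicates 3 and 4 it was 0.51. With the replicate pair as a covariate the same difference had an adjusted p of 0.0192, where 29.6% of the clusters passed, 18.5% as higher. Against 2-day cold, the 7-day value was 1.59 ± 0.90 (limma adjusted p = 0.549, 0% passed), with 2.16 and 0.54 within the pairs. Pericytes in 2-day cold differed from thermoneutral housing by 0.85 ± 0.90 (limma adjusted p = 0.440, 11.1% of clusters passed), with 0.72 and 1.46 within the pairs. Two-day cold differed from room temperature by 0.38 ± 0.90 (limma adjusted p = 0.830), with 1.28 and -0.036 within the pairs. Room temperature differed from thermoneutral housing by 0.47 ± 0.83 (limma adjusted p = 0.748). No cluster passed in either of these last comparisons. No difference in pericyte share beyond the spread between libraries was thus found among thermoneutral, room temperature and 2-day cold. Room temperature was lower than thermoneutral within replicates 1 and 2 (-0.56) and higher within replicates 3 and 4 (1.50).

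Relative to the smooth muscle cells of the same library, pericytes were more numerous in each 7-day library than in any thermoneutral or room temperature library. There were 6.38, 5.43, 1.57 and 0.503 pericytes per 100 VSM_ cells in thermoneutral replicates 1 to 4. At room temperature there were 2.39, 4.34, 2.56 and 5.04. In replicates 2 to 4 of 2-day cold there were 12.3, 3.92 and 4.94. After 7 days of cold there were 72.5, 60.5, 7.63 and 6.82. The 7-day group did not overlap with thermoneutral or room temperature, although its replicates 3 and 4 lay only just above the highest thermoneutral value. Replicate 2 of 2-day cold exceeded both of these libraries.

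The 7-day ratio to VSM_ cells exceeded the thermoneutral one by 3.24 in log2, or 9.43-fold, and the room temperature one by 2.67, or 6.37-fold. Each had an exact two-sided permutation p of 0.0286 (n = 4 against 4), the smallest these groups allow, and 0.171 after adjustment over 12 ratio tests. With so few libraries no ratio could have passed after this adjustment, so the exact test cannot decide here. In limma over the 17 tested clusters outside VSM_, a test added after the data had been seen, the same differences had adjusted p of 0.00647 and 0.0243. There, 70.6% and 41.2% of the clusters passed, and 52.9% and 41.2% were non-overlapping and higher. Thus 12 of 17 clusters outside VSM_ rose against VSM_ cells in 7-day cold relative to thermoneutral housing, and pericytes were among them. Within replicates 1 and 2 and within replicates 3 and 4, the differences from thermoneutral housing were 3.46 and 3.01, and those from room temperature 4.34 and 1.00.

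The remaining ratios to VSM_ cells did not pass either, and could not have after adjustment. Two-day cold was higher than thermoneutral housing by 1.41 (exact permutation p = 0.343, n = 3 against 4) and higher than room temperature by 0.84 (exact permutation p = 0.286). The difference from thermoneutral housing was 1.04 in replicates 1 and 2 and 2.27 in replicates 3 and 4, and that from room temperature was 1.92 and 0.25. Seven-day cold was higher than 2-day cold by 1.83 (exact permutation p = 0.229), with 2.42 and 0.74 in the pairs. Room temperature was higher than thermoneutral housing by 0.57 (exact permutation p = 0.571, n = 4 against 4), with -0.88 and 2.01 within the replicate pairs.

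Relative to endothelial cells the housings overlapped. Thermoneutral replicates 1 to 4 had 27.1, 16.7, 15.8 and 5.17 pericytes per 100 EC_ cells. Room temperature had 7.28, 20.5, 18.2 and 11.5, and replicates 2 to 4 of 2-day cold had 32.6, 11.1 and 19.0. The 7-day libraries had 91.8, 127, 21.1 and 16.4. As for the shares, 7-day replicates 1 and 2 lay above every other library, and 7-day replicates 3 and 4 lay inside the thermoneutral range.

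The 7-day ratio to EC_ cells was higher than the thermoneutral one by 1.67 in log2, or 3.19-fold, with an exact permutation p of 0.171 (n = 4 against 4). It was higher than the room temperature one by 1.74 (exact permutation p = 0.114). Limma over the 22 tested clusters outside EC_ gave adjusted p of 0.0727 and 0.129, with 13.6% and 9.09% of the clusters passing, and 9.09% passing as higher in each. In replicates 1 and 2 the difference from thermoneutral housing was 2.32, and in replicates 3 and 4 it was 1.03. The corresponding differences from room temperature were 3.12 and 0.35. Over 24 alternative settings the difference from thermoneutral housing ranged from 0.56 to 4.91. Per 100 cells of the endothelial cluster EC_10, the 7-day libraries had 175, 381, 36.5 and 36.0 pericytes. The thermoneutral ones had 186, 120, 42.9 and 19.1, so these groups overlapped too. Against 2-day cold the 7-day ratio was higher by 1.24 (exact permutation p = 0.343, n = 4 against 3), with 1.72 and 0.38 in the pairs. Two-day cold differed from thermoneutral housing by 0.43 (exact permutation p = 0.629, n = 3 against 4; 0.59 and 0.65 in the pairs) and from room temperature by 0.50 (exact permutation p = 0.514; 1.4 and -0.026 in the pairs). Room temperature differed from thermoneutral housing by -0.065 (exact permutation p = 0.943, n = 4 against 4), with -0.81 and 0.68 in the pairs. Endothelial cells themselves numbered 18.9 ± 11.1 per 100 VSM_ cells in thermoneutral housing, 28.0 ± 13.1 at room temperature, 33.0 ± 6.25 after 2 days of cold and 51.1 ± 19.2 after 7 days (SD, n = 4, 4, 3 and 4). The part of these reference cells in the pericyte differences was not tested.

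**Figure D2:**
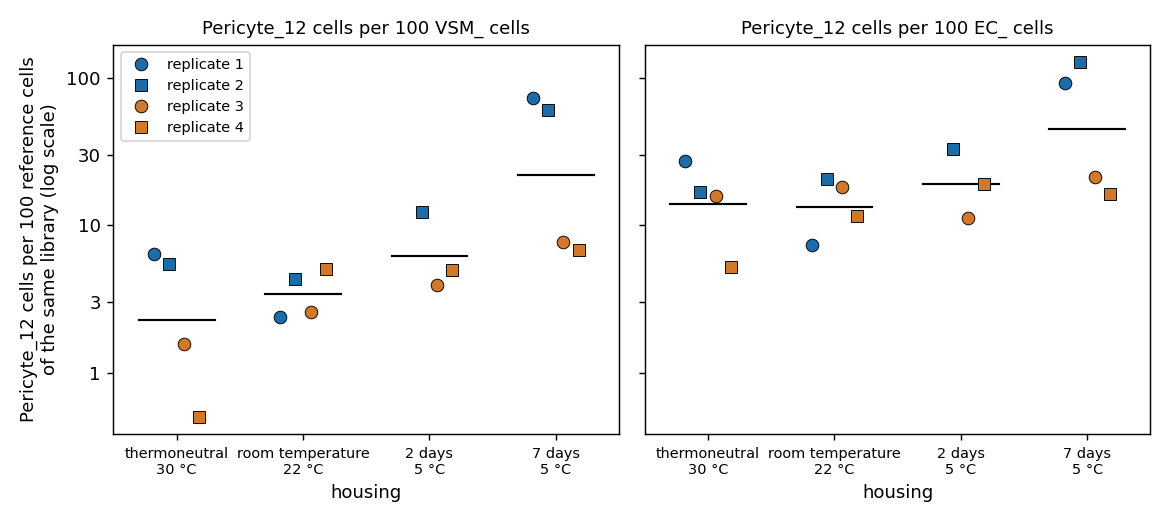
Pericyte_12 cells per 100 VSM_ cells (left) and per 100 EC_ cells (right) of the same library, both on a log scale, by housing; points are libraries, with replicates 1 and 2 in blue and 3 and 4 in orange, and lines are geometric means. Against VSM_ cells all 7-day libraries, 6.82 or more, lie above the thermoneutral and room temperature libraries, and against EC_ cells 7-day replicates 3 and 4, at 21.1 and 16.4, lie among the others.

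**Figure D3:**
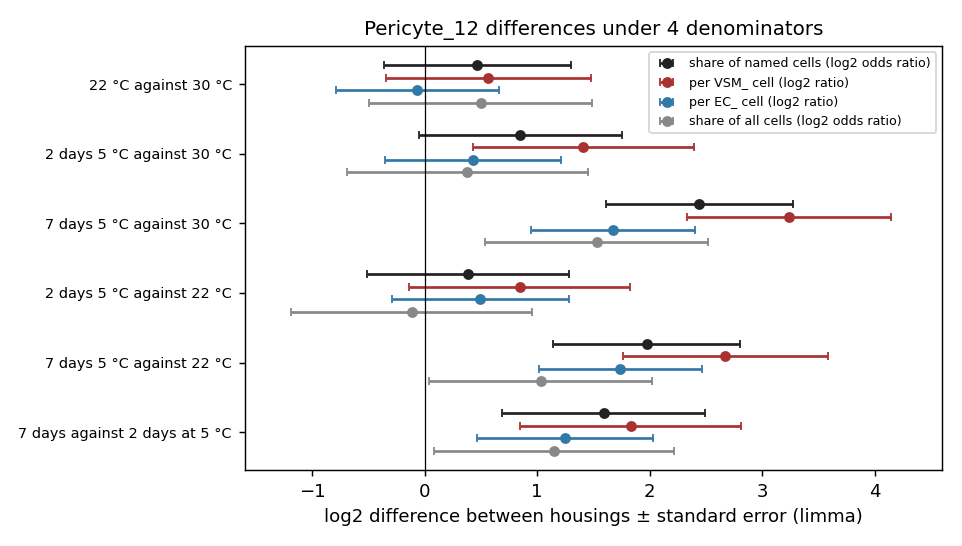
Differences between housings in Pericyte_12 abundance, as log2 values with limma standard errors, for 4 denominators. The 7-day values against thermoneutral housing range from 1.53 with all cells as the denominator to 3.24 per VSM_ cell.

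Of the other named clusters, EC_15 had the share most like that of pericytes over the 15 libraries. Spearman's rho of the log2 odds was 0.832, and 0.739 after the mean of each housing had been taken out. Schwann_14 (0.775 and 0.486) and VSM_21 (0.614 and 0.561) followed. These are descriptions, since the shares have a common denominator and the libraries differ in depth and replicate pair.

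The number of pericytes per 100 EC_15 cells lay between 37.9 and 138 in 13 libraries, a 3.65-fold range. Over the same 13 libraries the number per 100 EC_ cells ranged 6.30-fold and that per 100 VSM_ cells 24.5-fold. The libraries outside that range were replicates 1 and 2 of 7-day cold, with 264 and 331 pericytes per 100 EC_15 cells. Replicates 3 and 4 of 7-day cold had 86.4 and 90.0, amid the other housings. Within housings, the SD of the log2 ratio was 0.786 to EC_15, 1.06 to all EC_ cells and 1.4 to VSM_ cells. EC_15 is named as the closest of all named clusters, so its closeness was chosen from these values.

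**Figure D4:**
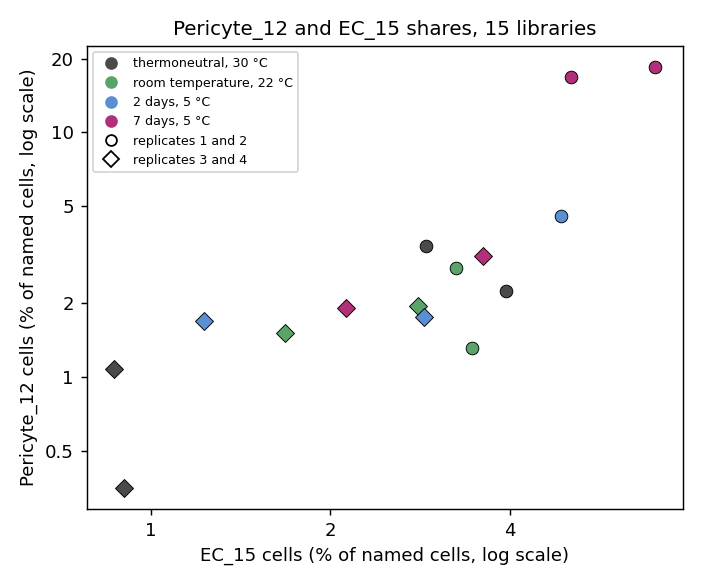
Share of named cells in Pericyte_12 (vertical) against that in EC_15 (horizontal), in percent on log scales; each of the 15 points is a library, coloured by housing, with circles for replicates 1 and 2 and diamonds for replicates 3 and 4. The points rise together, with Spearman's rho of the log2 odds at 0.832, and 7-day replicates 1 and 2 lie above the others at 18.5% and 16.8% pericytes.

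Pericytes had fewer UMIs per cell at the median than VSM_ cells as a whole. The median over all 838 was 3497 UMIs (range 847 to 13256) and 1751 detected genes (range 538 to 4475). Among the 28 named clusters this was the 8th lowest median of UMIs, and VSM_21 had a lower one, with 3120 UMIs and 1457 genes. In the 12 libraries with at least 10 pericytes, the median UMI count of pericytes was 0.205 to 0.471 times that of VSM_ cells and lower in all 12. It was lower than that of EC_ cells in 10 of 12, at 0.345 to 1.55 times. The deposited ratio of log10 genes to log10 UMIs, a measure of how varied the transcripts of a cell are, had a median of 0.913 in pericytes, as high as in Schwann_14 (0.913) and close to EC_15 (0.911). Such a ratio generally falls as UMI counts rise, and the part of the low UMI counts in it was not tested.

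Mitochondrial transcripts took a small share of pericyte UMIs. The median was 2.30%, the 7th lowest of the 28 named clusters, and no pericyte reached 20%, the highest being 18.2%. In all 12 libraries it was below that of VSM_ cells, with a median difference of -5.73 percentage points, and in 10 of 12 below that of EC_ cells. Among cells with 2500 to 5000 UMIs, where depth is closer, the 452 pericytes had a median mitochondrial share of 2.15%, the 1411 VSM_ cells 8.23% and the 658 EC_ cells 2.89%. Within single libraries that have at least 10 pericytes in this window, the pericyte value was below that of VSM_ cells in 7 of 8. Genes per cell in the window, pooled over libraries, differed less, at 1724.5, 1741 and 1565. Median UMIs there were 3445.5, 4303 and 3477.5, so depth was not equal. Within the same 8 libraries, pericytes had more genes than VSM_ cells in 6 and more than EC_ cells in 7. These comparisons of cell types have no test, because the types were separated by the genes of the same cells.

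Pericytes from 7-day cold had median UMI counts of 4883, 5166, 3298 and 3489 in replicates 1 to 4. In thermoneutral housing the medians were 2933, 4611.5, 2567 and 2578. At room temperature they were 4638.5, 3323.5, 1944 and 2601, and in replicates 2 to 4 of 2-day cold 3442, 2212 and 2228. The 7-day values were high but overlapped with thermoneutral housing and room temperature. Replicates 1 and 2 were also deeper than replicates 3 and 4, with pericyte medians of 4142.5 ± 884 (SD, n = 7) and 2449.8 ± 523 (SD, n = 5) in libraries with at least 10 pericytes.

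Relative to EC_ cells of the same library, pericyte UMI counts were highest in 7-day cold. The ratio of medians was 1.48, 1.55, 0.906 and 0.915 in the 7-day libraries. In thermoneutral housing it was 0.426, 0.605, 0.345 and 0.480, at room temperature 0.733, 0.546, 0.464 and 0.775, and in 2-day cold 0.552, 0.424 and 0.386. All 7-day libraries were above all others. The same held for 52.9% of the 17 clusters outside EC_ that were present in every library against thermoneutral housing, for 11.8% against room temperature and for 64.7% against 2-day cold. EC_ cells themselves had medians of 3309.5 to 3815 UMIs in the 7-day libraries and 3355 to 7620.5 elsewhere.

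In libraries with at least 10 pericytes, the log2 ratio of pericyte to EC_ UMIs was higher in 7-day cold than in thermoneutral housing by 1.51. The exact permutation p was 0.1 (n = 3 against 3), the smallest this design allows, and 0.253 after adjustment over 48 tests. Against EC_10 alone, the 7-day ratios for pericytes were 1.58, 1.75, 0.791 and 0.616 and the thermoneutral ones 0.585, 0.650, 0.469 and 0.877, and 0% of the clusters were non-overlapping and higher.

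The mitochondrial share of pericytes was 3.25% ± 0.466 in 7-day cold and 2.19% ± 0.299 in thermoneutral housing (SD, n = 3 each). The groups did not overlap, as was so for 28.6% of named clusters present in every library, and the exact permutation p was 0.1 (n = 3 against 3), the smallest possible, or 0.6 after adjustment over 24 tests. It was 2.13% ± 0.205 at room temperature and 2.76% ± 0.757 in 2-day cold (SD, n = 3 each). VSM_ and EC_ cells of the same 7-day libraries were at 9.93% ± 0.578 and 3.89% ± 0.230, and those of the thermoneutral libraries at 7.84% ± 0.978 and 3.28% ± 0.411 (SD, n = 3 each). With all 4 libraries of each housing, the 7-day pericyte shares again lay above every thermoneutral one. The same held for 28.6% of the 21 named clusters present in every library. None of the 24 tests of pericyte values between housings and none of the 48 tests of their difference from reference cells passed, before or after adjustment. With 3 libraries against 3 the exact test could not have passed. With every library that held a pericyte, 1 of 24 and 4 of 48 exact permutation tests had an unadjusted p under 0.05. After adjustment 0 passed, and with these group sizes none could have.

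**Figure D5:**
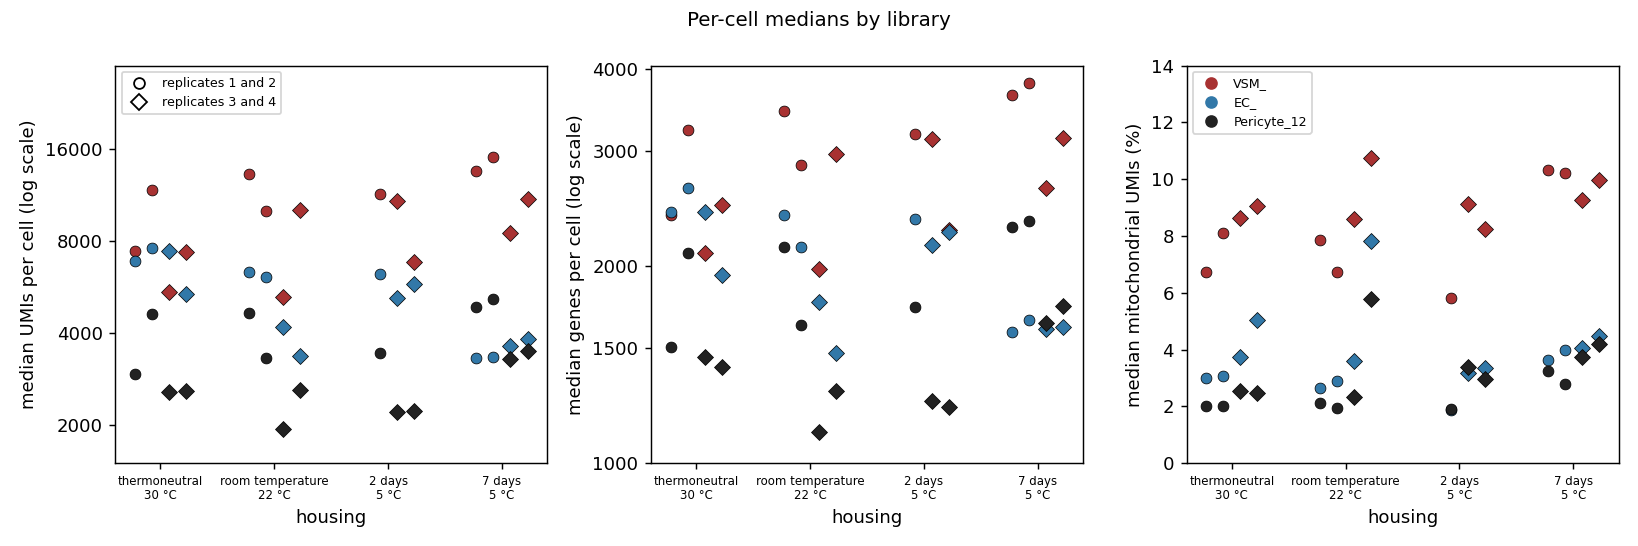
Median UMIs, median detected genes (both on log scales) and median mitochondrial share of Pericyte_12 (black), EC_ (blue) and VSM_ (red) cells in each library, by housing; circles are replicates 1 and 2 and diamonds replicates 3 and 4. Pericytes lie below VSM_ cells in all 3 panels, and in 7-day replicates 1 and 2 they lie above EC_ cells in UMIs, at 4883 and 5166 against 3309.5 and 3332.

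Phase calls, which sort cells into G1, S and G2M from cell cycle genes, could not be read as cycling for pericytes. In the table of named cells 63.0% of pericytes were called S or G2M, and in the table of all cells 20.6% of the same cells were. The calls were equal for 57.5% of pericytes. In libraries with at least 10 pericytes the share by the first table was 77.5% ± 13.1 in thermoneutral housing, 78.1% ± 4.40 at room temperature, 66.2% ± 11.1 in 2-day cold and 63.2% ± 18.2 in 7-day cold (SD, n = 3 each). By the second it was 18.7% ± 9.40, 39.5% ± 1.49, 31.5% ± 8.81 and 10.0% ± 5.01 (SD, n = 3 each). Of these means, room temperature was highest and 7-day cold lowest by both tables, whereas thermoneutral housing and 2-day cold changed places. Over all libraries with pericytes, the first table put 2-day cold lowest, at 66.2% against 66.8% in 7-day cold. Shares by the second table were not tested between housings. By the first table the difference between 7-day cold and thermoneutral housing was -14.3 percentage points (exact permutation p = 0.3, n = 3 against 3, and 0.640 after adjustment). With every library that held a pericyte it was -2.4 points (exact permutation p = 0.829, n = 4 against 4). Pericytes were called S or G2M more often than VSM_ cells in 12 of 12 libraries by both tables, and more often than EC_ cells in 6 of 12 by the first and 7 of 12 by the second. The cells could not be thinned to equal depth, so these shares may carry the difference in UMI counts. At 2500 to 5000 UMIs the share by the first table was 67.0% in pericytes, 64.7% in VSM_ and 67.5% in EC_ cells. Over all depths it was 63.0%, 55.1% and 70.6%. In libraries with at least 10 pericytes in this window, pericytes exceeded VSM_ cells in 7 of 8 and EC_ cells in 6 of 8. The part of UMI counts in the phase calls was not tested.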

How the data were processed

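The deposited per-cell annotations of 16 libraries were used. Per the submitters' processing notes, STAR and Cell Ranger 3.0.1 were used with mm10; how cells were filtered and clustered was not given in the sources used here. UMI and gene counts per cell, the log10 gene to log10 UMI ratio, the mitochondrial fraction and the phase scores were deposited by the authors without further scaling, and cluster names were used as they stand. No doublet calling or thinning was done.

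The library was the replicate. Members, reference classes and tests were chosen with earlier results of these data known. The 27 of 28 named clusters that averaged 10 or more cells per library were tested as log2 odds of their share of named cells, with 0.5 cells added, in limma 3.58.1 (R 4.3.3). The fit had 4 groups and 6 contrasts, and Benjamini-Hochberg adjustment ran over clusters within a contrast, with a threshold of 0.05. Ratios (0.5 cells added) and medians per cell were compared by exact two-sided permutation over libraries with scipy 1.17.1, adjusted within families of 12, 24 and 48 tests. The smallest p is 0.0286 for 4 libraries against 4, 0.0571 for 3 against 4 and 0.1 for 3 against 3. With these, no exact test could pass 0.05 after adjustment within its family. Clusters named in the text are Pericyte_12, VSM_ and EC_ as sums, any cluster that holds at least 5% of the pericytes at another resolution, and the 3 with the most similar shares. EC_10 and VSM_1 were added after their values were seen. Libraries held 1473 to 10005 cells; Wilson intervals cover counting error only. On cell numbers simulated for 7-day cold against thermoneutral housing over 27 clusters, limma recovered 7% of the clusters whose odds were changed 2-fold. It recovered 42% at 4-fold and 74% at 16-fold, and 6.82% of calls were false. Simulated clusters were drawn independently of each other, so a fall in some did not raise the shares of the rest. The 6.82% leaves out false calls of that kind. The simulated spread was that of the observed log odds, which already holds counting error, and counting error was drawn again on top. The recovered percentages may therefore be too low. Alternatives included edgeR 4.0.16, other denominators, filters on cells and leaving out each library. Chosen after seeing the data were limma on the ratios, EC_10 or VSM_ without VSM_21 as references, Pericyte_12 summed with VSM_21, the cluster of all cells that holds the pericytes, and a minimum of 3000 cells per library.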

Additional observations from a re-analysis of the deposited data

Results flagged for a closer look

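Groups of 4 libraries were searched for a value far from the rest; chance flags about 1 in 20 such groups, and 3 of 34 were flagged. The cluster of all cells that holds the pericytes made up 1.47% of replicate 2 of 2-day cold, above the other 2-day libraries. Pericytes of thermoneutral replicate 2 had a median of 2094.5 genes, above the other thermoneutral libraries, from 12 cells. Pericytes of room temperature replicate 4 had a median mitochondrial share of 5.77%, above the other room temperature libraries, from 7 cells; EC_ and VSM_ cells of that library also had the highest mitochondrial shares among room temperature libraries.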

How the results depend on the processing

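The rise of the pericyte share in 7-day cold against thermoneutral housing kept its direction under every alternative run. It lost its call with centred log ratios (1.57), all cells (1.53) or named cells without VSM_ (1.68) as the denominator, and for the cluster of all cells in 16 libraries (1.86), and ranged from 1.81 to 3.06 with single libraries left out. Against room temperature, 7-day cold passed with TMM scaling in edgeR (2.58), the replicate block (1.97) and the pair covariate (1.97), gave 3.44 and 0.51 within the pairs, and ranged from 1.44 to 2.59 with libraries left out, passing without 7-day replicate 4. The share of all clusters that passed with TMM, with the block or without that library was not counted. Room temperature against thermoneutral housing turned with TMM (-0.13) and in the range without single libraries (-0.16 to 0.93). Two-day cold against room temperature turned with centred log ratios (-0.054), all cells (-0.12), no VSM_ cells (-0.078), the cluster of all cells (-0.20), within replicates 3 and 4 (-0.036) and in the range without single libraries (-0.092 to 0.63). For ratios to VSM_, limma made calls at 3.24 and 2.67; values within pairs were -0.88 and 2.01 for room temperature against thermoneutral housing and 4.34 and 1.00 for 7-day cold against room temperature, and the former ranged from -0.15 to 1.04 without single libraries. For ratios to EC_, room temperature against thermoneutral housing (-0.065) was 0.82 in cells with 7085 UMIs, the median, or more and -0.53 to 0.25 without single libraries. Two-day cold against thermoneutral housing (0.43) was -0.32 against EC_10 and -0.033 to 0.81 without single libraries. Seven-day cold against room temperature was 3.12 and 0.35 within the pairs. Between 7-day cold and thermoneutral housing, pericyte genes against VSM_ were 0.035 (log2) with means in place of medians, and S or G2M shares spanned -1.82 to 12.3 points against VSM_ and -4.04 to 11.8 against EC_ without single libraries. The causes were not tested.

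Same-numbered libraries were correlated over 0.1 in 12 of 21 pairs, from -0.302 to 0.655. Libraries with different numbers were not correlated for comparison, so this cannot show whether the numbers mark pairs. The main fit left the numbers out. In the replicate block the share difference between 7-day cold and thermoneutral housing was 2.44 ± 0.61 (SE, limma adjusted p = 0.0106), against an SE of 0.83 without the block. How many clusters passed with the block was not counted. Only cells above the median UMI count left pericytes under 10 cells per library on average, so that setting gave no share. In 3 libraries, shares and medians rest on 7 to 9 pericytes.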

Other observations

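The named cluster whose share ran most opposite to that of pericytes over the 15 libraries was VSM_1, with a Spearman's rho of the log2 odds of -0.864, and -0.650 after the mean of each housing had been taken out. It was chosen after its values were seen, and shares of one total are bound to each other. In 7-day replicates 1 and 2, pericytes were 42.0% and 37.7% of the sum of pericytes and VSM_ cells. In 7-day replicates 3 and 4 they were 7.09% and 6.38%.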
